A study of Chlamydomonas reinhardtii with 12 samples.

Results

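Chromosome 6 of the unicellular green alga Chlamydomonas reinhardtii holds 1592 loci in the authors' deposited table, and 1228 of them carry no gene symbol. The loci described here were chosen from these by level. Each locus was represented by its transcript with the highest mean FPKM (a fragment count divided by transcript length and by library size) over 6 groups, and was kept where that mean was at least 1. This gave 690 loci of the 9467 loci of the whole genome that passed the same minimum. The other 538 fell under it, and 65 of those stood at 0 FPKM in all 6 groups. The loci just outside were Cre06.g306050 and Cre06.g305350, both with a mean of 0.996 FPKM, and those just inside were Cre06.g252800 with 1.00 and Cre06.g278181 with 1.01.

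The study used the strain CC-124 as wild type and amiCYG12, a transformant of CC-124 that carries an artificial microRNA against CYG12. A single amiCYG12 line was sequenced, so what the knockdown brought and what that line carries besides cannot be told apart. Both strains were grown in TAP, an acetate medium, in aerated cultures under 20 µmol of photons per square metre and second, which is called standard here. Parts of both were then kept for 6 h in darkness, stirred in open beakers, called dark aerated, or sealed in flasks that lose their oxygen, called anoxia. Each of the 6 groups has 2 libraries of poly(A)-selected RNA, 12 in all. Because each group has a single FPKM value in the table, pooled from its libraries, the values carry no replicate error, and the depth of the libraries is unknown.

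CYG12, a gene of the adenylate and guanylate cyclase family and the target of the artificial microRNA, lies on chromosome 7. Its FPKM was 0.132 in the wild type and 0.158 in amiCYG12 in standard, 3.23 and 0.353 in dark aerated, and 2.46 and 0.429 in anoxia. It was thus lower in amiCYG12 in both dark incubations and near 0 in both strains in the light. The authors' deposited table calls it lower in both dark incubations, with log2 changes of -3.19 and -2.52 and a q-value of 0.000623 each.

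Vegetative cells of this alga are haploid, so each nuclear gene is normally present as a single copy, and no second allele stands in for it. Chromosome 6 is known for the mating-type locus, the region that decides which mating type a cell has. In haploid budding yeast, cells with an extra copy of a chromosome have higher transcript levels of most genes on it. In the alga studied here, DNA copy number was not measured, and a bulk RNA value cannot separate a change in every cell from a change in some of the cells. The word shift below means a difference in transcript level only.

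The 690 loci run from chr6:18581-21121 to chr6:9003318-9005595 (genome version 5.5), and were moderately expressed, with a median of their mean FPKM of 3.88, against 4.16 for the 8421 loci of the other 16 numbered chromosomes and 12.8 for the 285 chromosome 6 loci with a symbol. Their median annotated length was 4.22 kb, against 4.25 kb on the other chromosomes. Only 39 of them have a description in the table, and 648 have a single transcript there. None of the 690 had a value of 0 in any group.

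For each locus the log2 ratio of amiCYG12 over wild type was taken on FPKM plus 0.1, and the median over the other chromosomes was subtracted, which gives the relative log2 ratio. That median was -0.12 in standard, -0.16 in dark aerated and -0.12 in anoxia. A relative log2 ratio of 0 therefore means that a locus stands where the middle locus of the other chromosomes stands. Since the loci were proposed with the strain contrast known, their strain ratios are given as a description with no test.

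The loci were higher in amiCYG12 in every incubation, by close to a doubling. The median relative log2 ratio was 0.95 in standard, 0.99 in dark aerated and 0.93 in anoxia, which are folds of 1.94, 1.98 and 1.91. On the scale of the table, with nothing subtracted, the medians were 0.83, 0.83 and 0.82. In standard 659 of the 690 loci stood above 0, in dark aerated 631, and in anoxia 647. The ratio lay between 0.5 and 1.5 for 73.3% of the loci in standard, 59.9% in dark aerated and 67.1% in anoxia, where 12.3%, 16.8% and 13.4% of the loci of the other chromosomes lay. The 285 chromosome 6 loci with a symbol had medians of 0.91, 0.96 and 0.86.

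No other chromosome came near these values. Among the other 16 chromosomes, the medians of the loci without a symbol ranged from -0.08 (chromosome 15) to 0.05 (chromosome 9) in standard. In dark aerated they ranged from -0.19 (chromosome 15) to 0.06 (chromosome 3), and in anoxia from -0.14 (chromosome 15) to 0.09 (chromosome 9). The lower quartile of the chromosome 6 loci, at 0.64, 0.57 and 0.56, lay above the median of each of the other 16 chromosomes in the same incubation.

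**Figure D1:**
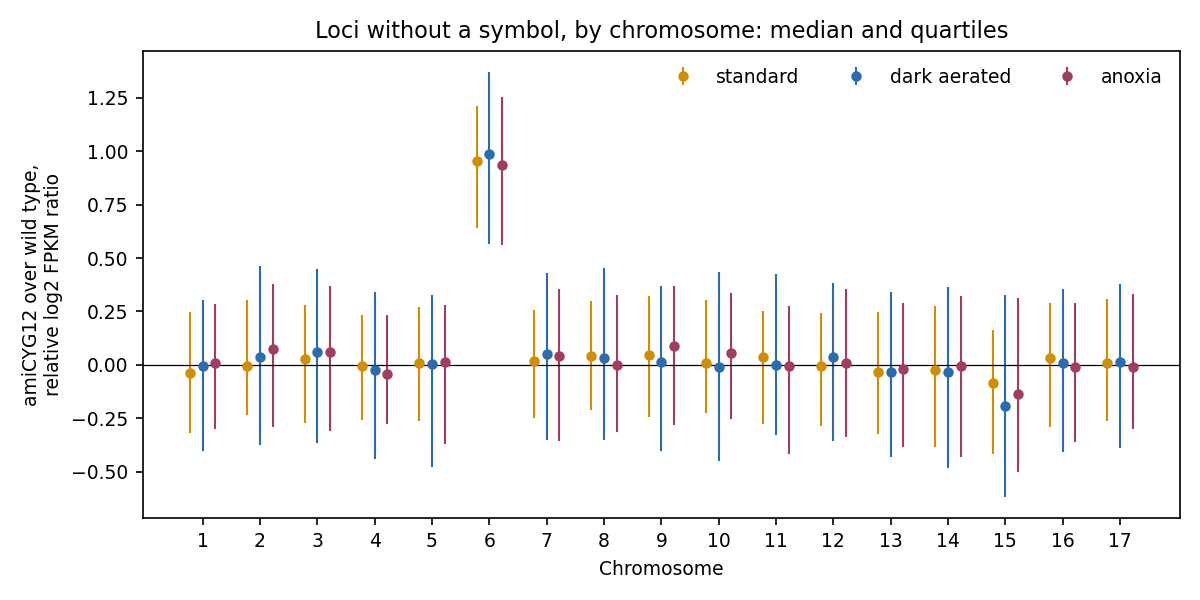
Relative log2 FPKM ratio of amiCYG12 over wild type (y axis) for loci without a gene symbol on each of the 17 chromosomes (x axis), in 3 incubations. Points are medians and bars reach from the lower to the upper quartile over loci. Chromosome 6 stands at 0.95, 0.99 and 0.93, and the other chromosomes stand between -0.19 and 0.09.

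In summed transcript, the 690 loci held 1.42% of the FPKM of all 9467 loci in the wild type in standard, 1.35% in dark aerated and 1.43% in anoxia. In amiCYG12 they held 2.94%, 2.86% and 2.98%. The share was thus 2.07, 2.11 and 2.09 times as large in amiCYG12. Their summed FPKM itself was 1.62, 1.81 and 1.70 times as large. The share rose more because the sum over all 9467 loci was lower in amiCYG12. That sum was 524127 against 666468 in the wild type in standard, 510473 against 596317 in dark aerated and 514786 against 631478 in anoxia. A sum of FPKM follows the few most abundant loci, so these values describe other loci than the medians do.

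The spread of the loci around their median was close to that elsewhere. The distance between the lower and upper quartile was 0.57, 0.80 and 0.69 on the log2 scale for the 690 loci in standard, dark aerated and anoxia. For the other chromosomes it was 0.57, 0.79 and 0.69. Across the 690 loci, the ratio in standard correlated with that in dark aerated at a Pearson r of 0.39 and with that in anoxia at 0.44, and the ratios of both dark incubations correlated at 0.56. Over the 8421 loci of the other chromosomes the same coefficients were 0.38, 0.42 and 0.54. The 3 ratios use separate groups, but each comes from the same pair of strains and the same transcript models.

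**Figure D2:**
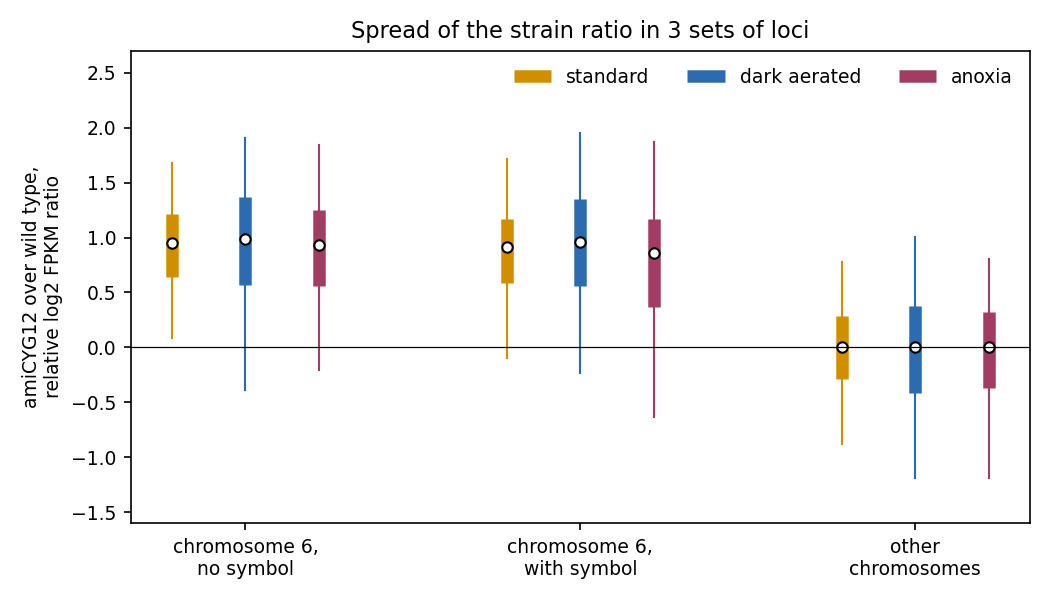
Relative log2 FPKM ratio of amiCYG12 over wild type (y axis) in 3 sets of loci (x axis), in 3 incubations. Circles are medians, thick bars reach from the lower to the upper quartile and thin lines from the 5th to the 95th percentile over loci. The quartile ranges of the chromosome 6 loci without a symbol are as wide as those of the other chromosomes (0.57 and 0.57 in standard) and lie about 1 log2 unit higher.

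By position, the shift ran along the whole chromosome. In windows of 1 Mb by the midpoint of each locus, the medians in standard lay between 0.72 and 1.07 over the 9 windows from 0 to 9 Mb, which hold 53 to 102 loci each. In dark aerated they lay between 0.80 and 1.09, and in anoxia between 0.79 and 1.05. The lowest window in standard and in dark aerated was that from 6 to 7 Mb, with 69 loci and medians of 0.72, 0.80 and 0.79. The last window, from 9 to 10 Mb, holds a single locus.

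Both end loci were higher in amiCYG12. At the left end Cre06.g248750 (chr6:18581-21121) had 5.89, 5.94 and 3.34 FPKM in the wild type in standard, dark aerated and anoxia, against 12.2, 12.3 and 8.72 in amiCYG12. Each amiCYG12 value was above every wild-type value. The authors' deposited table calls it higher in all 3 incubations, with log2 changes of 1.05, 1.04 and 1.38. At the right end Cre06.g311900 (chr6:9003318-9005595), described as a small Rab-related GTPase, a class of proteins that direct vesicles to their target membranes, had 89.3, 75.2 and 52.1 FPKM in the wild type, against 134, 77.3 and 106 in amiCYG12. Its relative log2 ratios were 0.71, 0.20 and 1.14, so in dark aerated the strains stood close together.

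A finer view used the median over 25 neighbouring loci, which gives 666 windows along the chromosome. In standard the running median lay between 0.30 and 1.2004, in dark aerated between 0.45 and 1.32, and in anoxia between 0.50 and 1.42. On the other chromosomes, 8037 windows of 25 loci were taken over loci with and without a symbol. They ran from -0.42 to 0.39 in standard, from -0.50 to 0.55 in dark aerated and from -0.55 to 0.43 in anoxia. Windows of that kind over all chromosome 6 loci had lowest medians of 0.33, 0.22 and 0.26. The lowest stretch of chromosome 6 thus overlapped the highest stretches elsewhere in all 3 incubations. The running median was under 0.5 in 30 windows in standard, in 15 in dark aerated and in 0 in anoxia, where the lowest window, at chr6:2474789-2834871, had 0.50.

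**Figure D3:**
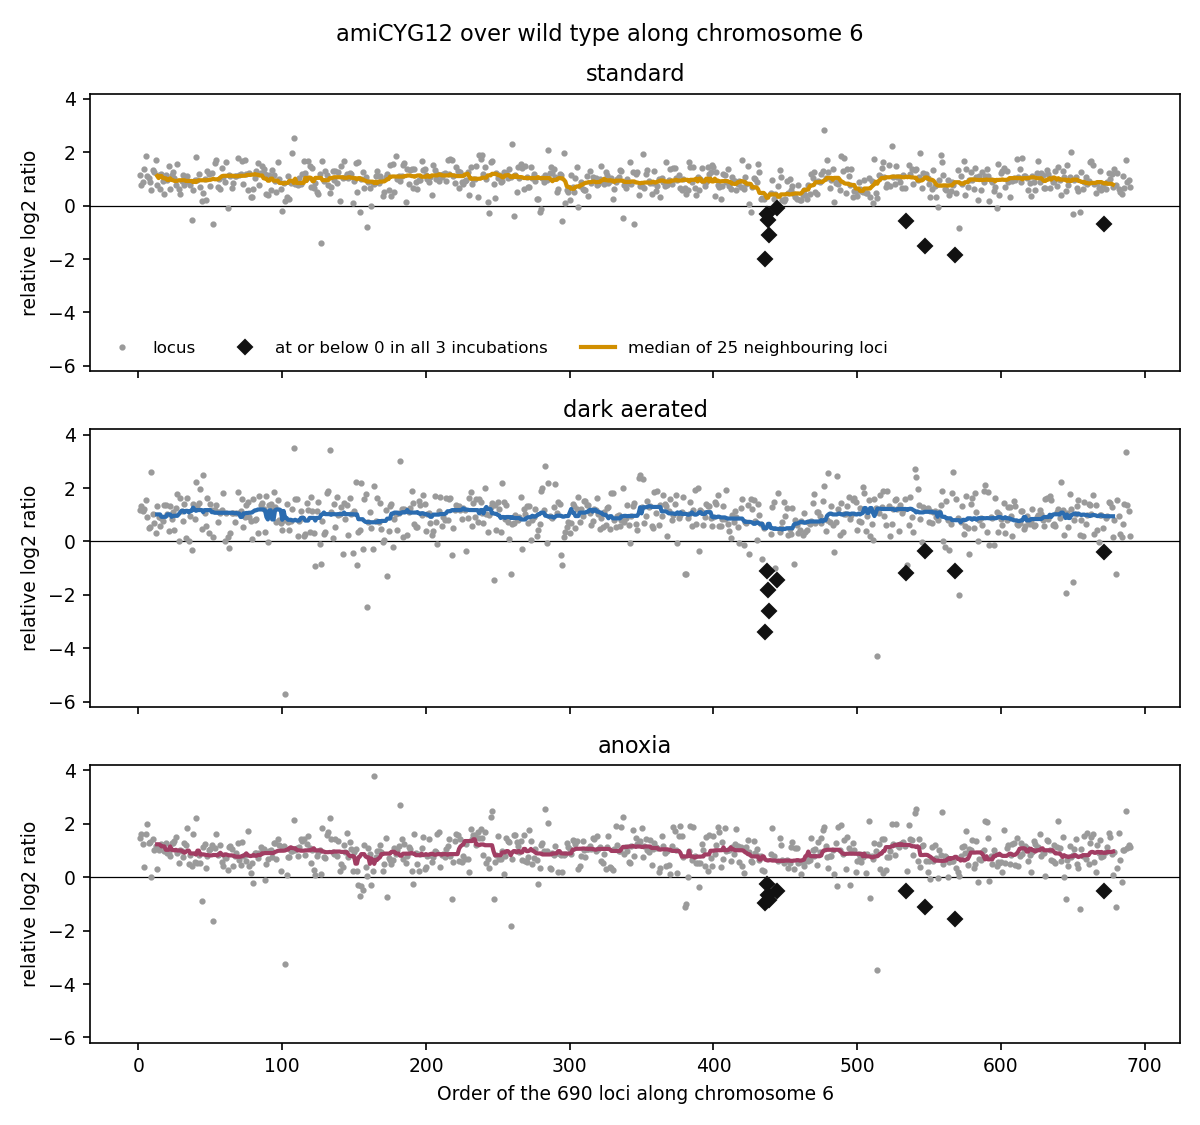
Relative log2 FPKM ratio of amiCYG12 over wild type (y axis) for the 690 loci in their order along chromosome 6 (x axis), 1 panel per incubation. Grey points are loci, black diamonds are the 9 loci at or below 0 in all 3 incubations, and the line is the median of 25 neighbouring loci. The line stays above 0 throughout and dips to 0.30 in standard, where 5 of the diamonds lie close together.

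The 30 low windows of standard joined into 1 stretch, chr6:5787094-6435386, of 648 kb. It was chosen after its values were seen and is described only. Its 54 loci had medians of 0.50, 0.70 and 0.64 in standard, dark aerated and anoxia, which are folds of 1.41, 1.62 and 1.56. The 636 loci outside had 0.97, 1.01 and 0.96. The 23 loci with a symbol inside it, which took no part in choosing it, had medians of 0.53, 0.36 and 0.71, against 0.94, 1.03 and 0.88 for the 262 outside. Of the 54 loci, 14 in standard and 17 in each dark incubation reached the median of all 690. The median of their mean FPKM was 3.95, against 3.87 outside.

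By level, the shift was found in every class. The 277 loci with a mean of 1 to 3 FPKM had medians of 1.01, 0.96 and 0.89 in standard, dark aerated and anoxia. The 252 loci of 3 to 10 FPKM had 0.95, 0.99 and 0.95, and the 115 loci of 10 to 30 FPKM had 0.87, 1.01 and 1.00. The 31 loci of 30 to 100 FPKM had 0.89, 0.95 and 0.98, and the 15 loci of 100 FPKM and over had 0.78, 1.09 and 0.99. In standard the lowest class had the highest median and the highest class the lowest. The same held on the other chromosomes in standard, with 0.06 in the lowest class and -0.29 in the highest. Set against the same class elsewhere, the lowest class stood higher by 0.95 in standard and the highest by 1.06.

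On the other chromosomes the most abundant loci were lower in amiCYG12. The 365 loci of 100 FPKM and over elsewhere had medians of -0.29, -0.26 and -0.48. Measured against them, the 15 loci stood higher by 1.06, 1.35 and 1.47. The lower classes, set against the same class elsewhere, stood higher by 0.87 to 1.14 in all incubations.

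**Figure D4:**
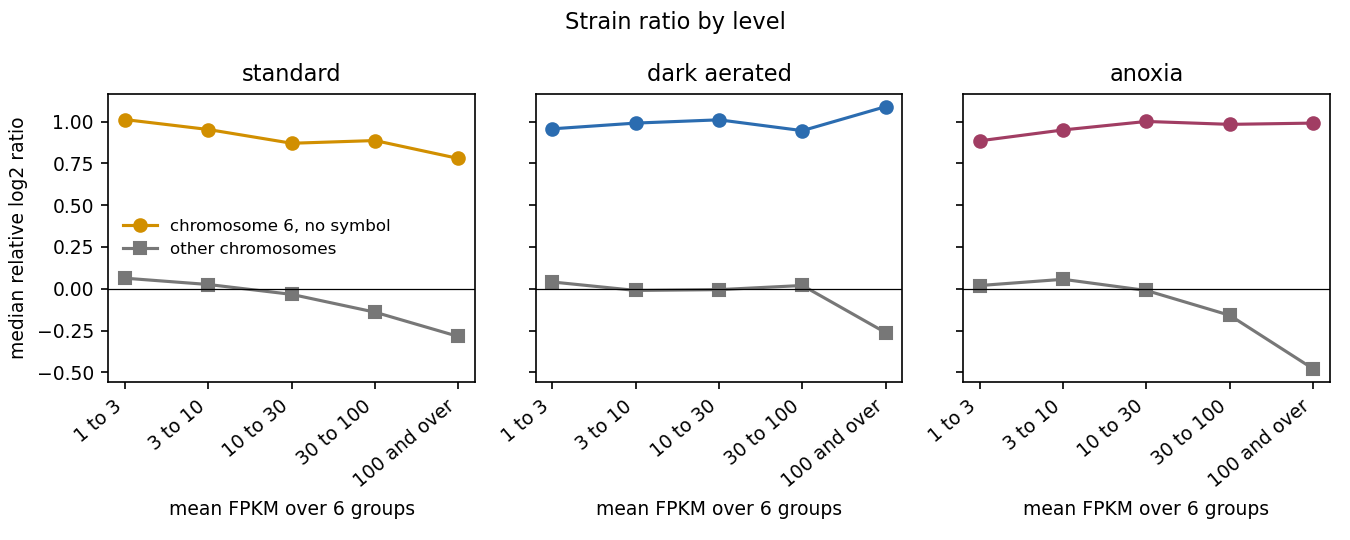
Median relative log2 FPKM ratio of amiCYG12 over wild type (y axis) by the mean FPKM of the locus over the 6 groups (x axis), 1 panel per incubation. Circles are the chromosome 6 loci without a symbol and squares the loci of the other chromosomes. The medians of chromosome 6 lie between 0.78 and 1.09 in every class, and those of the other chromosomes drop to -0.48 in the highest class in anoxia.

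The loci with the highest level were described one by one. Cre06.g263450 (chr6:1914759-1918081), the most abundant, had 1096, 1101 and 1392 FPKM in the wild type in standard, dark aerated and anoxia, against 1813, 1657 and 2555 in amiCYG12. Cre06.g298650 (chr6:7294201-7298298) had 955, 821 and 1060 in the wild type and 1401, 1555 and 2354 in amiCYG12. For both loci each amiCYG12 value exceeded every wild-type value. The authors' deposited table calls the first in no incubation and the second in anoxia, with a log2 change of 1.15 and a q-value of 0.0136.

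Cre06.g250200 (chr6:148846-153317) is described as an S-adenosylmethionine synthetase, the enzyme that makes the methyl donor of most methylation reactions. It had 561, 300.1 and 509 FPKM in the wild type, against 884, 679 and 582 in amiCYG12, with relative log2 ratios of 0.78, 1.34 and 0.31. The gap between the strains was widest in dark aerated, the only incubation in which the authors' deposited table calls it (log2 change 1.18, q-value 0.00996). Cre06.g308533 (chr6:8573071-8574623) showed the same order, with ratios of 0.54, 1.57 and 0.36 at 238 FPKM in the wild type, against 633 in amiCYG12 in dark aerated.

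Cre06.g258800 (chr6:1382765-1388562) is described as a hydroxyproline-rich glycoprotein of the outer cell wall, which in this alga is built of such proteins rather than of cellulose. Its FPKM was 149, 131 and 268 in the wild type and 431, 351 and 624 in amiCYG12. It stood above the median of the 690 loci in each incubation, with relative log2 ratios of 1.66, 1.59 and 1.33, and the authors' deposited table calls it higher in all 3. Cre06.g275100 (chr6:3114432-3118657), with ratios of 1.32, 1.68 and 0.99, is called higher in standard and in dark aerated.

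Of the 8 most abundant loci, 2 stood under the median of the 690 in every incubation. Cre06.g304350 (chr6:8046506-8048480), described as a subunit of mitochondrial cytochrome c oxidase, the last complex of the respiratory chain, had 284, 296 and 326 FPKM in the wild type, against 419, 330.1 and 436 in amiCYG12. Its ratios were 0.69, 0.32 and 0.53, and it is called in no incubation. Cre06.g294950 (chr6:6786157-6791329) had 288, 172 and 397 FPKM in the wild type, against 452, 278 and 299 in amiCYG12, with ratios of 0.78, 0.85 and -0.29. It was the single one of the 8 that was lower in amiCYG12 in any incubation.

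The 39 loci with a description moved with the rest. Each stood above 0 in all 3 incubations, with medians of 0.85, 1.10 and 1.09, against 0.96, 0.98 and 0.92 for the 651 without one. The authors' deposited table calls 12 of the 39 higher in standard, 19 in dark aerated and 19 in anoxia, and calls none lower. Of all loci tested in the genome, chromosome 6 included, it calls 5.44%, 7.33% and 5.55% higher and 5.17%, 11% and 9.13% lower. On the other chromosomes alone it calls 1.61%, 3.36% and 1.84% higher and 5.56%, 11.9% and 9.79% lower. Nothing is read from the difference, since the choice of loci knew this contrast. By keywords in the descriptions, 6 are protein kinases or phosphatases, 6 transport proteins, 7 proteins of translation and RNA, 5 proteins of membrane traffic and 5 metabolic enzymes. None of these 5 groups had a median under 0.53 in any incubation, and the highest group median was 1.34.

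Among RNA proteins, Cre06.g298300 is described as a pentatricopeptide repeat protein that stabilizes the rbcL mRNA, which encodes the large subunit of Rubisco in the chloroplast. It had 10.1, 8.42 and 9.48 FPKM in the wild type, against 16.5, 22.1 and 15.5 in amiCYG12. Cre06.g296250, a lysyl-tRNA synthetase, had 8.24, 4.66 and 5.43 in the wild type and 10.9, 17.4 and 8.43 in amiCYG12, and its ratio of 2.04 in dark aerated was the highest of any described locus. Cre06.g278239, a serine/arginine-rich splicing factor, had 47.7, 21.9 and 6.61 in the wild type and 50.8, 24.3 and 12.96 in amiCYG12. Its ratios of 0.22 and 0.31 in standard and dark aerated lay well under the median, and that of 1.08 in anoxia above it.

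The SNARE proteins, which fuse vesicles with their target membranes, had ratios from 0.50 to 1.85. The endosomal R-SNARE Cre06.g278172 had ratios of 1.03, 0.92 and 0.93. The early endosomal SNARE Cre06.g290100, which lies inside the low stretch, had 1.09, 0.50 and 1.205, and the Golgi SNARE Cre06.g280900 had 0.74, 1.28 and 1.85. Of the transport group, 3 are mitochondrial substrate carriers, which move metabolites across the inner mitochondrial membrane. Cre06.g295400 had ratios of 0.56, 1.62 and 1.03, Cre06.g260200 0.76, 1.71 and 0.90, and Cre06.g267800 1.04, 0.22 and 0.78. A keyword also placed Cre06.g256750 there, an acyl carrier protein thioesterase, which releases fatty acids and is no transporter. Both loci placed under DNA and chromatin, Cre06.g278236 and Cre06.g286300, are described as ubiquinone or menaquinone methyltransferases, enzymes of quinone synthesis.

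Cre06.g278251, described as a cryptochrome, a blue-light receptor, had 3.62, 2.95 and 2.22 FPKM in the wild type, against 4.76, 6.67 and 5.38 in amiCYG12. Its ratio was 0.51 in the light and 1.31 and 1.36 in darkness. Whether these ratios differ between incubations was not tested.

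Few loci escaped the shift. At or below 0 stood 31 loci in standard, 59 in dark aerated and 43 in anoxia. Of the 690, 600 (87.0%) were above 0 in all 3 incubations, 56 were at or below it in 1, 25 in 2 and 9 (1.30%) in all 3. Of the loci with a symbol on chromosome 6, 7 of 285 (2.46%) were at or below 0 in all 3, and of those on the other chromosomes 21.5%. At least 0.5 in all 3 incubations were 421 of the 690 (61.0%), against 1.97% of the other chromosomes.

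The 9 escaping loci were also the 9 that lay at least 1 log2 unit under the median of the 690 in every incubation. That median was 0.95, 0.99 and 0.93, so both rules cut at nearly the same place and their overlap is no separate result. Elsewhere 109 of the 8421 loci of the other chromosomes (1.29%) lay at least 1 under their own median in all 3. The share of chromosome 6 loci that stood apart in this way was therefore close to the share in the rest of the genome. None of the 9 has a description in the table. By level, 3 of them lay at 1 to 3 FPKM, 5 at 3 to 10 and 1 at 10 to 30, and 0 above.

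Inside the low stretch lie 5 of the 9, and 4 of these lie within chr6:5956535-5998400. The stretch was chosen by low ratios in standard, which the escaping loci also have, so this overlap is partly built in. Cre06.g288900 (chr6:5956535-5958190) was the lowest of all 690 in standard. It had 3.33, 3.79 and 11.1 FPKM in the wild type in standard, dark aerated and anoxia, against 0.689, 0.235 and 5.27 in amiCYG12. Within each incubation amiCYG12 was lower, and in both strains the level was highest in anoxia. Its relative log2 ratios were -1.99, -3.38 and -0.95, and the authors' deposited table calls it lower in all 3 incubations.

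Cre06.g289100 (chr6:5995299-5998400) had 1.13, 4.63 and 3.70 FPKM in the wild type, against 0.426, 0.589 and 1.83 in amiCYG12. Its ratios were -1.10, -2.62 and -0.86, and it too is called lower in all 3. Between these loci lie Cre06.g288950 (chr6:5966882-5970971), with ratios of -0.30, -1.10 and -0.25, and Cre06.g289050 (chr6:5989364-5992930), with -0.52, -1.83 and -0.65. Both are called lower in dark aerated alone. In all 4 loci the gap between the strains was widest in dark aerated.

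Farther right, Cre06.g289900 (chr6:6100410-6107355) had 3.31, 6.22 and 7.49 FPKM in the wild type, against 2.82, 1.98 and 4.78 in amiCYG12. Its ratios were -0.10, -1.44 and -0.52, so in standard it stood close to 0. Its neighbour Cre06.g289950, described as a DEAD/DEAH box helicase, an enzyme that unwinds RNA, did not escape. That locus had 2.81, 2.16 and 3.12 FPKM in the wild type, against 4.30, 7.09 and 4.48 in amiCYG12, with ratios of 0.72, 1.83 and 0.63.

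The other 4 escaping loci lie farther right and apart from each other. Cre06.g301750 (chr6:7678550-7681421) had 2.19, 1.88 and 9.74 FPKM in the wild type, against 0.489, 0.721 and 2.98 in amiCYG12. With ratios of -1.83, -1.11 and -1.56 it lay farthest under the median when judged by its smallest deviation, and it is called lower in all 3. Cre06.g300139 (chr6:7460695-7465017), the most abundant of the 9, had 11.6, 12.7 and 27.8 in the wild type and 3.69, 8.90 and 11.8 in amiCYG12. It is called lower in standard and in anoxia, with log2 changes of -1.65 and -1.23 in the authors' deposited table.

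Cre06.g298880 (chr6:7334122-7337027) had 1.77, 2.14 and 0.898 FPKM in the wild type, against 1.06, 0.780 and 0.552 in amiCYG12, and is called lower in dark aerated alone. Cre06.g310200 (chr6:8809837-8812473) had 8.30, 7.77 and 3.09 in the wild type and 4.71, 5.20 and 1.97 in amiCYG12. It is called in no incubation. For this locus the strains kept a similar gap throughout, with ratios of -0.68, -0.41 and -0.51.

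**Figure D5:**
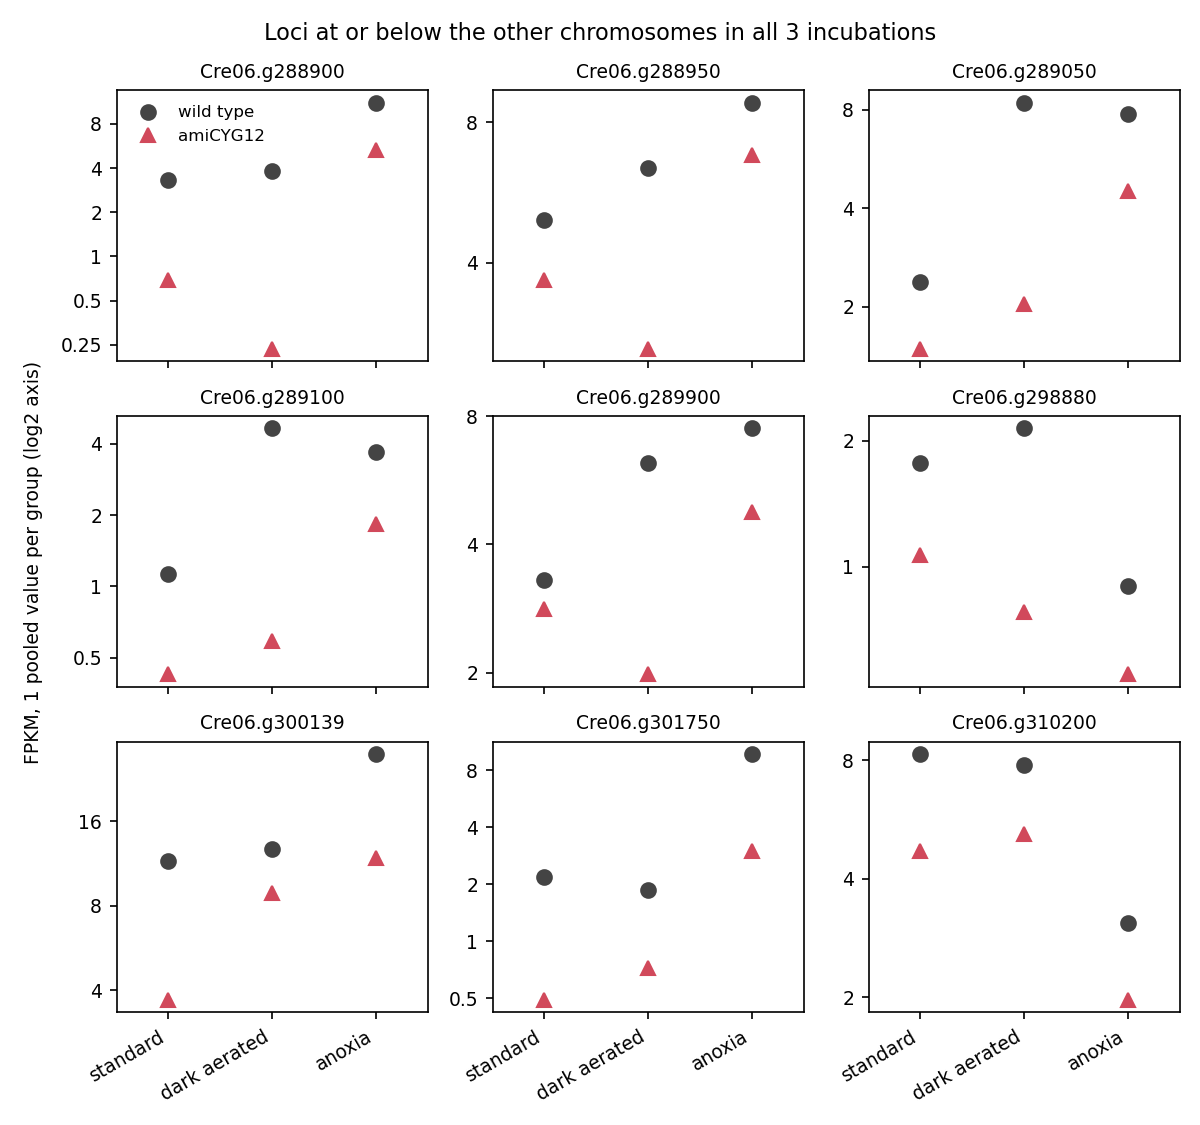
FPKM (y axis, log2 scale, 1 pooled value per group) of the 9 escaping loci in the wild type (circles) and amiCYG12 (triangles) in the 3 incubations (x axis). There is no error bar, since the table pools the libraries of a group. The triangle lies under the circle in every incubation, with the widest gap for Cre06.g288900 in dark aerated (3.79 against 0.235 FPKM).

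Calls within a strain were also counted for the escaping loci. Going from standard to anoxia, the authors' deposited table calls 6 of the 9 higher in the wild type and 6 higher in amiCYG12, and 5 of these are called in both. Of all loci tested, 10.3% were called higher in the wild type and 8.54% in amiCYG12. On the other chromosomes, 55.1% of such wild-type calls and 68.6% of such amiCYG12 calls were shared between the strains. The 9 loci were picked by their strain ratios from the same groups, so no test was made. Cre06.g310200 is called lower in both, with log2 changes of -1.42 and -1.26. For Cre06.g288900 the deposited log2 changes were 1.74 in the wild type and 2.93 in amiCYG12. From standard to dark aerated, 3 of the 9 were called higher in the wild type and 0 in amiCYG12, against 3.89% and 3.12% of all loci tested. From dark aerated to anoxia 3 and 6 were called higher, 2 of them in both, against 6.26% and 12.8%. Called lower there were 2 and 1, with 1 in both, against 8.51% and 12.9%.

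At the other end, 2 of the 690 loci (0.29%) lay at least 1 log2 unit above the median of the 690 in all 3 incubations, against 0.38% of the loci of the other chromosomes above their own median. Cre06.g263700 (chr6:1945363-1948808) had 1.59, 0.882 and 1.96 FPKM in the wild type, against 8.89, 9.77 and 8.24 in amiCYG12. Its relative log2 ratios were 2.54, 3.49 and 2.13. Cre06.g278206 (chr6:4031066-4033220) had 1.22, 1.78 and 1.86 in the wild type and 4.98, 7.62 and 7.31 in amiCYG12, with ratios of 2.07, 2.20 and 2.03. For both loci the lowest amiCYG12 value exceeded the highest wild-type value.

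The next in this direction were Cre06.g292900 (chr6:6465927-6472828), Cre06.g254100 (chr6:783585-787098), Cre06.g311700 (chr6:8991325-8993475) and Cre06.g300933 (chr6:7576410-7577806). Cre06.g292900 lies just right of the low stretch and had the highest ratio of the 690 in standard, 2.85, with 1.21 FPKM in the wild type, against 8.58 in amiCYG12. Cre06.g311700 had 1.39, 0.820 and 0.226 in the wild type and 4.41, 8.24 and 1.58 in amiCYG12. The authors' deposited table calls all 6 of these loci higher in all 3 incubations.

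Some loci followed the shift in the light and not in darkness. At or below 0 in both dark incubations stood 23 loci, and 9 of the 690 were above 0.5 in standard at the same time. No such count for the other chromosomes stands beside these, so whether 9 is many or few was not tested. Cre06.g307750 (chr6:8491812-8496050) had 10.04, 22.7 and 33.7 FPKM in the wild type in standard, dark aerated and anoxia, against 13.6, 5.26 and 17.7 in amiCYG12. The wild type was higher in both dark incubations and amiCYG12 was higher in the light, with ratios of 0.56, -1.93 and -0.81. The authors' deposited table calls it lower in both dark incubations.

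Cre06.g269650 (chr6:2607939-2610911), the most abundant of these 9, had 20.5, 30.1 and 50.1 FPKM in the wild type, against 45.1, 21.996 and 32.8 in amiCYG12. Its level was higher in darkness in the wild type and lower in darkness in amiCYG12. Cre06.g278137 had ratios of 0.81, -1.46 and -0.82, and Cre06.g311050 had 0.76, -1.23 and -1.12. The other 5 were Cre06.g271600, Cre06.g277150, Cre06.g278164, Cre06.g283800 and Cre06.g284950. The difference between incubations was not tested for any of the 9.

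The lowest ratios of all in darkness belonged to loci that were named after their values were seen. Cre06.g263200 (chr6:1881324-1884840) had 0.0455, 7.97 and 2.18 FPKM in the wild type, against 0.0501, 0.0362 and 0.121 in amiCYG12. It was near 0 in the light in both strains, and in darkness it was high in the wild type alone. Cre06.g297049 (chr6:7082796-7084487) had 0.00688, 3.53 and 6.04 in the wild type and 0.0189, 0.0658 and 0.409 in amiCYG12. The authors' deposited table calls both lower in anoxia, with q-values of 0.00393 and 0.000623, and neither in dark aerated, with q-values of 0.188 and 0.0794. For both loci every group except the wild type in darkness stood under 1 FPKM. They thus passed the minimum mean of 1 FPKM through the groups that gave their lowest ratios. Those ratios are therefore not independent of the minimum.

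The highest ratio in anoxia, 3.79, belonged to Cre06.g270500 (chr6:2707552-2715912). It had 0.538, 0.0748 and 0.285 FPKM in the wild type, against 0.933, 0.558 and 4.81 in amiCYG12. Its level in amiCYG12 was highest in anoxia, whereas in the wild type it was highest in the light. Every group except amiCYG12 in anoxia stood under 1 FPKM. The locus thus passed the minimum mean of 1 FPKM through the group that gave its highest ratio, so that ratio is not independent of the minimum.

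The calls of the authors' deposited table were then counted, at its q-value threshold of 0.05. In standard 266 of the 685 loci tested (38.8%) were called higher in amiCYG12, where 5.44% of all loci tested in the genome were. In dark aerated 289 of 688 (42.0%) were called higher, with a background of 7.33%, and in anoxia 267 of 687 (38.9%), with a background of 5.55%. Called lower were 5 loci in standard, 20 in dark aerated and 15 in anoxia, which are 0.73%, 2.91% and 2.18%. The background for lower calls was 5.17%, 11% and 9.13%. These backgrounds include the loci of chromosome 6 themselves. On the other chromosomes alone, 1.61%, 3.36% and 1.84% of the loci tested were called higher and 5.56%, 11.9% and 9.79% lower. With p-values adjusted by Benjamini-Hochberg within the comparison instead, 154 were called higher in standard, with a background of 3.1%, and 2 lower, with a background of 3.19%. The choice of loci knew this contrast, so nothing is read from these shares.

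Over the 3 incubations, 80 loci were called higher in all 3, 168 in 2, 246 in 1 and 196 in none. Of the 690, 3 were called lower in all 3, 8 in 2 and 15 in 1, and 0 were called in both directions. No such count over the rest of the genome stands beside these, so whether they are many or few was not tested. Only 4 of the 11 loci called lower in at least 2 incubations were among the 9 escaping loci. Among the other 7 were Cre06.g270050 (chr6:2656642-2660763), called lower in standard and in dark aerated with ratios of -0.80, -2.45 and 0.03, and the neighbours Cre06.g283800 and Cre06.g283850. This adjacent pair had ratios of 0.65, -1.24 and -1.11, and of 0.43, -1.20 and -1.02.

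The shift was also set beside the smallest change that received a call. The median deposited log2 change of the 690 loci was 0.858, 0.853 and 0.852 in standard, dark aerated and anoxia. The smallest absolute deposited log2 change with a call in these comparisons was 0.872, 0.861 and 0.875 over all loci. The middle of the distribution thus lay just short of the smallest called change, and 340, 339 and 334 of the 690 loci reached it. Fewer were called higher (266, 289 and 267), so reaching it did not suffice for a call at every locus. What decided a call at a given locus was not tested. A locus that was not called higher is therefore not shown to have escaped. By window of 1 Mb, from 0 to 9 Mb, the share called higher ran from 23.2% (6 to 7 Mb) to 50.6% (3 to 4 Mb) in standard.

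Comparisons within a strain set each strain against itself and were not used in choosing the loci. The minimum mean of 1 FPKM, however, was taken over the same 6 groups. The median deposited log2 change of the 690 loci lay between -0.06 and 0.00 in all 6 of them. From standard to anoxia, the authors' deposited table calls 91 of the loci higher and 89 lower in the wild type, out of 689 tested (13.2% and 12.9%). The background was 10.3% and 17.2%. In amiCYG12 it calls 84 higher and 90 lower out of 688 (12.2% and 13.1%), with a background of 8.54% and 16.9%. Of the higher calls 54 were shared, 59.3% of those of the wild type and 64.3% of those of amiCYG12. On the other chromosomes the shared part was 55.1% and 68.6%. Of the lower calls 56 were shared, 62.9% and 62.2%, against 67.2% and 69.6% on the other chromosomes. The difference between these shares was not tested.

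From standard to dark aerated, fewer loci were called. In the wild type 29 were higher and 30 lower (4.24% and 4.39% of 684), against a background of 3.89% and 7.18%. In amiCYG12 28 were higher and 41 lower (4.07% and 5.96% of 688), against 3.12% and 10.4%. The strains shared 6 of the higher calls, 20.7% of those of the wild type and 21.4% of those of amiCYG12, against 19.0% and 24.5% on the other chromosomes. They shared 8 of the lower calls, 26.7% and 19.5%, against 34.8% and 23.6%.

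From dark aerated to anoxia, 46 loci were called higher and 45 lower in the wild type, against a background of 6.26% and 8.51% (6.71% and 6.56% of the loci tested). In amiCYG12 90 were higher and 84 lower (13.1% and 12.2%), against 12.8% and 12.9%. Shared were 24 of the higher calls, 52.2% of those of the wild type and 26.7% of those of amiCYG12, against 61.3% and 29.8% on the other chromosomes. Of the lower calls 28 were shared, 62.2% and 33.3%, against 62.0% and 42.1%.

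The loci called from standard to anoxia in both strains were ranked by the smaller of their 2 deposited log2 changes, and the first 3 in each direction were picked after their values were seen. Highest ranked was Cre06.g278231 (chr6:4174896-4179934), with 0.141, 1.79 and 4.17 FPKM in the wild type in standard, dark aerated and anoxia, against 0.0491, 0.820 and 4.38 in amiCYG12. Its deposited log2 changes were 4.89 and 6.48. Both strains showed the same order, from near 0 in the light to the highest level in anoxia. In standard the locus stood under 1 FPKM in both strains, so it passed the minimum mean of 1 FPKM through its dark groups. Its rise is therefore not independent of the minimum, and its log2 changes rest on standard values near 0. Cre06.g271900 (chr6:2857942-2861244) had 1.66, 15.9 and 39.7 in the wild type and 4.63, 12.4 and 57.6 in amiCYG12, again with the same order. Cre06.g308050 (chr6:8528056-8530478) had 2.102, 6.78 and 15.4 in the wild type and 1.53, 2.06 and 25.3 in amiCYG12.

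In the opposite direction, Cre06.g277100 (chr6:3285641-3290179) ranked highest, with deposited log2 changes of -3.22 in the wild type and -3.88 in amiCYG12. It had 1.17, 0.817 and 0.125 FPKM in the wild type, against 3.78, 2.44 and 0.257 in amiCYG12. In anoxia it stood under 1 FPKM in both strains, so its fall is not independent of the minimum mean either. Cre06.g259450 (chr6:1459005-1461381) had 7.87, 2.704 and 0.892 in the wild type and 9.04, 2.55 and 1.21 in amiCYG12. Its level was thus highest in the light and lowest in anoxia in both strains. The third, Cre06.g300700 (chr6:7540369-7543056), had 194.9, 52.7 and 26.6 in the wild type and 173.8, 82.1 and 24.1 in amiCYG12. Its strain ratios were -0.04, 0.80 and -0.03, so it stood near the other chromosomes in standard and anoxia and higher in dark aerated.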

How the data were processed

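RNA from 12 libraries, 2 in each of 6 groups, was measured by RNA-seq. The submitters' processing notes name CASAVA 1.8.2, Bowtie2 2.0.5, TopHat2 2.0.6, SAMtools 1.2 and Cufflinks 2.1.1. The authors deposited 1 table of 19505 transcripts (17741 loci), made on genome version 5.5 with the annotation of Phytozome release 11, per the file headers. It holds 1 FPKM value per group, and for 9 comparisons the authors' log2 fold change, p-value, q-value and call. Over which tests the q-values were adjusted, and how reads shared by similar loci were counted, are points not given in the sources used here. RNA libraries were stranded, per the labels' protocols.

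All else was computed here with pandas 2.3.3 and numpy 2.4.6 in Python 3.11.15: log2 ratios on FPKM plus 0.1, relative to the median of the other chromosomes, windows of 1 Mb, medians of 25 loci and counts of the authors' calls. The median shift was tested on simulated data with a known shift on chromosome 6. The counts of escaping loci and of loci beyond the shift had no known value there. The members, lists and named loci were chosen with earlier results of these data known. Named were the 8 highest in level, the 8 farthest against and 6 farthest along the shift, up to 8 called lower in at least 2 incubations, and the end loci; others are said to be chosen after their values were seen, or carry a description or belong to a count given. Role keywords were searched in the table's descriptions; the list for proteolysis and folding held 0 loci, that for cytoskeleton and flagella 1. Values per library, foreseen in the plan, are not in the table, so no linear model was run. All 690 loci matched the RefSeq annotation (Chlamydomonas_reinhardtii_v5.5), which gives 0 of them a symbol; 7 share their span with another locus, and their values are uncertain. Alternatives covered the pseudocount, the minimum level, the reference, the summing of transcripts and the adjustment of p-values.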

Additional observations from a re-analysis of the deposited data

How the results depend on the processing

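The shift kept its direction in all 3 incubations under each alternative tried, and its median ran from 0.68 to 0.99 in standard, from 0.66 to 1.06 in dark aerated and from 0.62 to 1.11 in anoxia. A pseudocount of 1 gave 0.74, 0.76 and 0.70, and left 1 locus beyond the shift. A mean of at least 10 FPKM, which leaves 161 loci, gave 1.06 in dark aerated and 1.11 in anoxia. It left 1 escaping locus, 0 beyond, 55, 75 and 76 called higher and 1, 1 and 3 called lower. A mean of at least 0.1 FPKM gave 0.89 in standard and 0.87 in anoxia. All 1228 loci with no minimum gave 0.68, 0.66 and 0.62. Without a reference the medians were 0.83, 0.83 and 0.82, and against loci with a symbol elsewhere 0.99 in anoxia. A Benjamini-Hochberg adjustment within each comparison left 154 higher and 2 lower in standard. Windows of 0.5 Mb had a lowest median of 0.60 in standard. Added were 2 alternatives chosen after seeing the data: without the low stretch 4 loci escaped, and a minimum of 1 FPKM in the wild type alone gave 0.94, 0.96 and 0.92, with 11 escaping of 603. Apart from the smaller number of loci in stricter filters, the cause of these moves was not tested.

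No paired analysis was possible because the table holds 1 pooled value per group and its columns carry no replicate number. For the same reason leaving out a library was not run. Depth is unknown, so no limit of detection can be given for low loci.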

Other observations

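Of the 1228 chromosome 6 loci without a symbol, 65 (5.29%) stood at 0 FPKM in all 6 groups, against 4.11% of the loci without a symbol on the other chromosomes. They were unevenly placed: 29 lay among the 134 loci of the first Mb and 11 among the 134 of the second, 0 among the 150 from 5 to 6 Mb and 0 among the 111 from 6 to 7 Mb. Many of those in the first Mb lie between Cre06.g253569 (chr6:624529-625402) and Cre06.g254052 (chr6:764069-772180). An FPKM of 0 shows only that no fragment was assigned.

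Loci on scaffolds that belong to no numbered chromosome had lower medians than chromosome 6 wherever at least 3 of them passed. Among these scaffolds (71 loci passed on all scaffolds), the highest median was 0.57, over the 5 loci of scaffold 21 in anoxia, and the same loci had 0.17 in standard and 0.36 in dark aerated. The 22 loci of scaffold 18 had medians of -0.05, 0.22 and 0.03, and the 16 loci of scaffold 19 had 0.07, -0.25 and -0.05.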
